A study of Mus musculus with 16 samples.

Results

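The comparison described here sets mast cells that lack Nbeal2 against wild-type (WT) mast cells after both had received IL-33. It rests on 8 of the 16 libraries of the study, chosen by their labels: 4 libraries of Nbeal2-/- cells with IL-33 and 4 of WT cells with IL-33, with every gene of the count table as a possible member. The other 8 libraries are 4 of untreated Nbeal2-/- cells and 4 of untreated WT cells, and they enter as the reference for what the genotype did without the cytokine. All cells came from the bone marrow of mice on a C57BL/6 background. The series title calls them mast cells, whereas the cell type label speaks of bone marrow mononuclear cells. How much IL-33 was added and for how long, how old cultures and mice were, and which part of Nbeal2 was deleted was not stated in the labels. The labels do not tie replicates to single animals, and a p-value here therefore reflects only how far these samples vary, which may in part be technical variation. Xist and Y-linked RNA, described below, differed between libraries of the same genotype, so these were not all repeats of 1 cell pool.

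Mast cells are tissue-resident immune cells that store proteases, histamine and other mediators in secretory granules and release them on activation. IL-33 is an alarmin set free by damaged epithelial and stromal cells. It binds the receptor chain encoded by Il1rl1 and signals through MyD88 to NF-kB and MAP kinases, and in mast cells it is best known for inducing cytokines and chemokines. NBEAL2 is a BEACH-domain protein that is needed to form platelet alpha granules, and its loss in humans causes gray platelet syndrome.

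Library totals ran from 36405209 to 51419415 counts in Nbeal2-/- cells with IL-33 and from 40050802 to 57694499 in WT cells with IL-33, so that a gene at 1 CPM (counts scaled to the library size, after TMM scaling) rested on at least 35 counts per library. Of 55487 genes in the table, 15470 passed a filter on low counts. The mast cell markers fixed for the check were present in both genotypes, though not all at equal levels. The receptor genes Kit and Il1rl1 were lower in Nbeal2-/- cells, as given below with the mast cell identity genes. The IgE receptor gene Fcer1a averaged 5327 ± 83.9 CPM in Nbeal2-/- cells and 5109 ± 159.7 CPM in WT cells (SD, n = 4 each), and Cpa3, the gene of granule carboxypeptidase A3, averaged 15388 ± 673 CPM in Nbeal2-/- cells and 15507 ± 437 CPM in WT cells. Of the markers of other cells, 8 of 14 neutrophil, 5 of 10 eosinophil and 7 of 17 lymphocyte and dendritic cell markers had no count in any of the 8 libraries. Other lists were not low: stem and progenitor markers summed to 3790 to 3910 RPM (reads scaled to the library total) in Nbeal2-/- libraries and 4220 to 4570 RPM in WT libraries, and megakaryocyte and platelet markers to 1500 to 1610 RPM in Nbeal2-/- libraries and 1530 to 1590 RPM in WT libraries. Most of the megakaryocyte and platelet sum was Itga2b, at 1350 to 1440 RPM in Nbeal2-/- libraries and 1350 to 1380 RPM in WT libraries. The stem and progenitor sum included Kit, itself a mast cell marker, at 1000 to 1180 RPM in Nbeal2-/- libraries and 1500 to 1720 RPM in WT libraries. Such sums therefore do not measure amounts of other cells. Monocyte, macrophage and basophil markers were present too and are given last. Y-linked transcripts and Xist varied between libraries of the same genotype. Both kinds of transcript were present together in Nbeal2-/- libraries 2, 3 and 4 and in WT libraries 3 and 4, whereas Nbeal2-/- library 1 and WT libraries 1 and 2 held Y-linked RNA with Xist under 1 RPM.

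With IL-33, 1730 genes differed between Nbeal2-/- and WT cells at an adjusted p under 0.05, which is 11.2% of the 15470 tested. Of these, 849 were higher (5.49%) and 881 lower (5.69%) in Nbeal2-/- cells. Most changes were small: 268 exceeded 2-fold, 99 of them higher (0.64%) and 169 lower (1.09%). The libraries of the 2 genotypes did not overlap for 3538 genes (22.9%), 1597 of which were called. Calls come from the quasi-likelihood test of edgeR on the counts with Benjamini-Hochberg adjustment over all genes tested, and every adjusted p below is from that fit unless another is named. Fold changes are Nbeal2-/- over WT on the log2 scale with their standard error (SE), and levels are CPM after TMM scaling, as mean ± SD over 4 libraries. Fitting only the 8 libraries with IL-33, in place of all 16, raised the number of calls to 3099. Requiring a mean of 5 CPM left 68 changes over 2-fold, against 268 without it.

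Nbeal2 itself (ENSMUSG00000056724, chromosome 9, bases 110624789 to 110654161 on the minus strand of GRCm38) stood at 76.9, 64.3, 68.9 and 72.8 CPM in the Nbeal2-/- libraries, against 183, 253, 249 and 258 CPM in the WT libraries. The genotypes did not overlap, and WT library 1 was the lowest of its group. The log2 fold change was -1.74 (SE 0.17, adjusted p = 1.05e-05), a 3.33-fold lower level, so that transcript of the gene remained countable in the cells labelled Nbeal2-/-. Counts summed over the gene do not show which part was deleted. Without IL-33 the log2 fold change was -2.02, and the difference between both conditions, 0.29 (SE 0.24), did not pass (adjusted p = 0.55).

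The nearest tested gene to Nbeal2 changed the other way. Nradd, which encodes a death domain protein related to the neurotrophin receptor, lies downstream of Nbeal2 on the same strand, where it begins 336 bases after the end of Nbeal2 (chromosome 9, bases 110621135 to 110624452). It stood at 14.2, 14.5, 14.5 and 14.4 CPM in Nbeal2-/- cells, against 7.01, 4.18, 3.96 and 4.17 CPM in WT cells. All 4 Nbeal2-/- libraries lay above all WT libraries, of which library 1 was the highest. The log2 fold change of 1.56 (SE 0.15, adjusted p = 2.81e-06) exceeded that without IL-33, 0.41, by 1.15 (SE 0.21, adjusted p of the difference = 0.0043). Whether reads were counted by strand was not stated. The 250 bases before the RefSeq start of Nradd (GRCm38.p6, chr9:110624394-110624643, minus strand), which reach into the interval between the 2 genes, are shown because of that position. They held none of the motifs searched here, which are listed with the granule proteases.
Nradd: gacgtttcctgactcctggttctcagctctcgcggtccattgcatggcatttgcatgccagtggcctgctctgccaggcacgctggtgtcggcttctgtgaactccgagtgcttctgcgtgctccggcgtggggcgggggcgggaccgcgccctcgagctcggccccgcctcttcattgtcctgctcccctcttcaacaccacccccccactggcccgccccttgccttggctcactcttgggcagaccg

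Of 135 tested genes that start within 5 Mb of Nbeal2, 11 were higher and 9 lower in Nbeal2-/- cells (14.8% called, against 11.2% of all genes), with a median log2 fold change of 0.02. Within 1 Mb, 2 of 20 genes were higher and 4 lower (30% called). Shisa5, which encodes an endoplasmic reticulum protein linked to apoptosis, stood at 421, 401, 429 and 423 CPM in Nbeal2-/- cells and at 311, 311, 334 and 301 CPM in WT cells. Its groups were well apart, with a log2 fold change of 0.41 (SE 0.04, adjusted p = 7.85e-06). Glb1, the gene of lysosomal beta-galactosidase, fell to 39.0 ± 1.71 CPM in Nbeal2-/- cells, against 75.6 ± 10.7 CPM in WT cells (log2 fold change -0.95, SE 0.11, adjusted p = 2.2e-05). Setd2 and Ccdc12, which lie 6155 and 2341 bases from Nbeal2, had log2 fold changes of -0.07 and -0.03 and were not called. In the map of fold change against distance, called genes lay on both sides of Nbeal2 among genes that were not called.

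**Figure D1:**
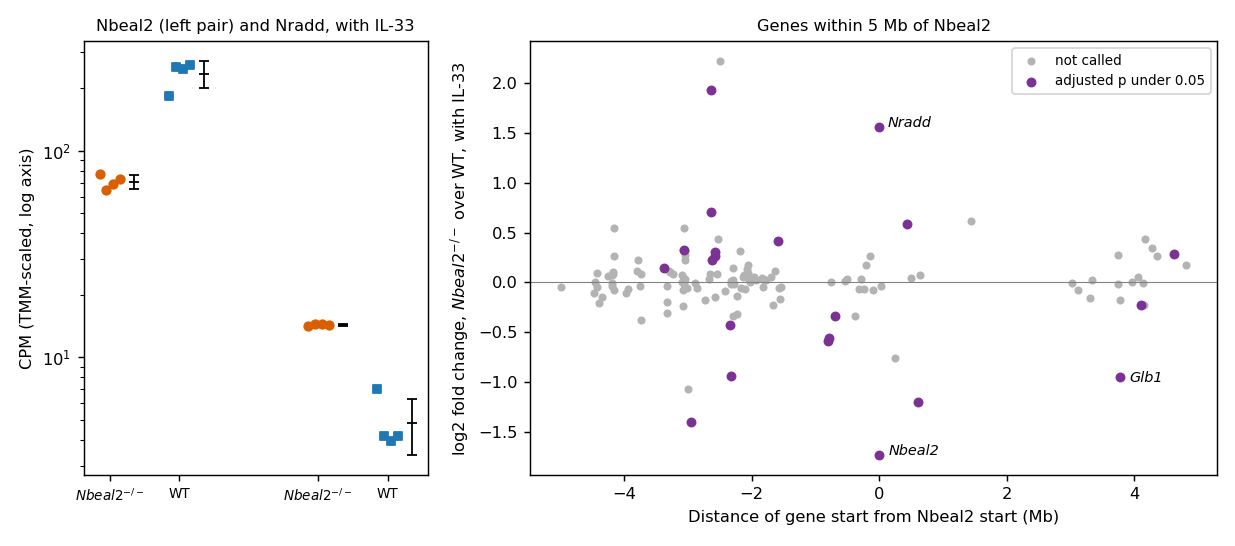
Left, CPM of Nbeal2 and Nradd in each library with IL-33 (log axis; circles Nbeal2-/-, squares WT; black bars mean ± SD of 4 libraries); right, log2 fold change of each tested gene within 5 Mb against the distance of its start from that of Nbeal2 in Mb (purple, adjusted p under 0.05; grey, not called). Nbeal2 at -1.74 and Nradd at 1.56 sit next to each other with opposite signs.

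With genes averaging under 5 CPM in both genotypes, or with overlapping libraries, set aside, the 10 largest rises had log2 fold changes from 1.24 to 1.91. Zdhhc15, a palmitoyltransferase gene on the X chromosome, stood at 5.40, 5.26, 5.83 and 5.25 CPM in Nbeal2-/- cells, against 1.32, 0.718, 2.08 and 1.68 CPM in WT cells. Ephx2, which encodes the soluble epoxide hydrolase that breaks down epoxides of fatty acids, stood at 70.2, 92.1, 91.8 and 71.8 CPM in Nbeal2-/- cells, against 16.2, 31.3, 30.5 and 16.7 CPM in WT cells. In both genes every Nbeal2-/- library exceeded every WT library, and for Ephx2 libraries 2 and 3 were the highest of either genotype. Ephx2 was 3.46-fold higher (log2 1.79, SE 0.20, adjusted p = 2.84e-05).

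The receptor tyrosine kinase gene Tek, known for the angiopoietin receptor of blood vessels, was at 18.1, 20.8, 17.0 and 15.9 CPM in Nbeal2-/- cells and 6.66, 5.27, 7.14 and 7.36 CPM in WT cells (log2 fold change 1.44, SE 0.12, adjusted p = 4.70e-07). Apoe, the gene of the lipid carrier apolipoprotein E, was at 32.0, 43.9, 39.4 and 44.8 CPM in Nbeal2-/- cells, against 18.1, 14.9, 19.1 and 15 CPM in WT cells (log2 fold change 1.25, SE 0.12, adjusted p = 2.86e-06). Entpd1 encodes CD39, which degrades extracellular ATP, and averaged 7.27 ± 1.56 CPM in Nbeal2-/- cells and 2.79 ± 0.27 CPM in WT cells. Neither genotype overlapped the other in these 3 genes. Palld, Igfbp4, Nxpe4 and Ighm completed the rises. Ighm, the immunoglobulin mu chain gene, was at 5.47 ± 0.84 CPM in Nbeal2-/- cells and 1.93 ± 0.96 CPM in WT cells. For Palld, a gene of the actin cytoskeleton, Nbeal2-/- library 1 at 2.95 CPM lay far under the other 3, at 6.00 to 6.73 CPM, yet above the highest WT library at 2.42 CPM.

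The 10 largest falls were deeper, with log2 fold changes from -2.62 to -1.79. Cd81, a tetraspanin gene, was at 2.09, 1.62, 1.83 and 2.14 CPM in Nbeal2-/- cells, against 12.9, 11.7, 11.9 and 11.0 CPM in WT cells. That is 6.17-fold lower (log2 -2.62, SE 0.14, adjusted p = 4.66e-09), with little spread in either genotype. Mrgprb2, the receptor through which connective tissue mast cells of the mouse respond to basic secretagogues, was at 4.30, 4.44, 4.34 and 4.31 CPM in Nbeal2-/- cells, against 33.5, 17.3, 21.1 and 24.6 CPM in WT cells. The Nbeal2-/- libraries were almost alike and the WT libraries spread up to WT library 1; the log2 fold change was -2.48 (SE 0.21, adjusted p = 1.60e-06). Tns1, the gene of the focal adhesion protein tensin, fell 5.67-fold, to 4.04 ± 0.48 CPM in Nbeal2-/- cells against 22.8 ± 6.85 CPM in WT cells.

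The receptor genes Ccr3 and Cd33 were also among these falls. Ccr3, the eotaxin receptor gene, averaged 2.2 ± 0.44 CPM in Nbeal2-/- cells and 8.86 ± 1.70 CPM in WT cells (log2 fold change -2.01, SE 0.16, adjusted p = 3.49e-07). Cd33, an inhibitory sialic acid receptor gene, averaged 2.44 ± 0.29 CPM in Nbeal2-/- cells and 8.39 ± 0.515 CPM in WT cells (log2 fold change -1.79, SE 0.16, adjusted p = 1.26e-06). Serpinb2, which encodes plasminogen activator inhibitor 2, fell to 2.28 ± 1.14 CPM in Nbeal2-/- cells against 8.82 ± 1.11 CPM in WT cells. Ces2c, a carboxylesterase gene, had 332 counts over the Nbeal2-/- libraries and 1312 over the WT libraries with IL-33, and 0 counts in both untreated groups. The remaining 3 falls were the proteases Mcpt1 and Mcpt4 and the chemokine Ccl6.

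**Figure D2:**
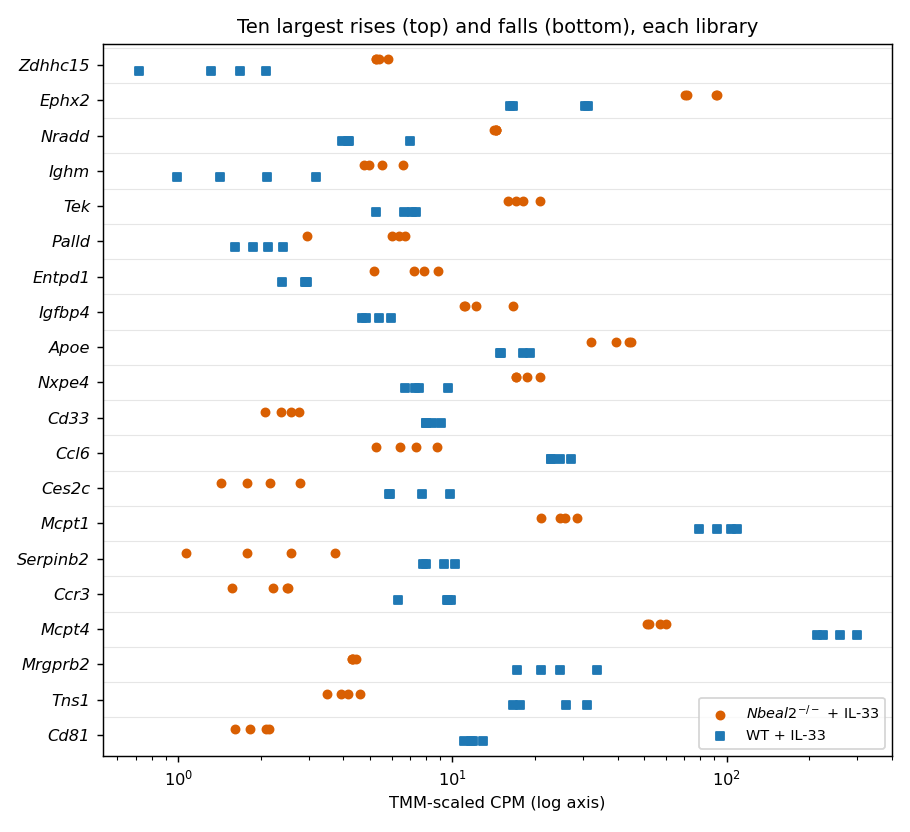
CPM after TMM scaling (log axis) of the 10 largest rises (upper rows) and 10 largest falls (lower rows) in each library with IL-33; orange circles are Nbeal2-/- libraries and blue squares WT libraries. The 4 libraries of each genotype stay apart in every row, which the choice of these genes required, and Cd81 shows the widest gap on the log axis (log2 fold change -2.62).

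Several granule protease transcripts were lower in Nbeal2-/- cells. Of 22 tested genes of granule proteases and cargo, 0 were higher and 9 lower (40.9% called, against 11.2% of all genes), with a median log2 fold change of -0.40 against 0.00 over all genes. Under the alternatives run, 8 to 11 were lower, and members were called higher with the replicate block (1), without the 4 libraries numbered 1 (2) and in fits of only the 8 libraries with IL-33 (3). Mcpt4, Mcpt1 and Mcpt2, all on chromosome 14, had the largest falls of the list. Mcpt1, a mucosal mast cell chymase gene, was at 25.8, 24.7, 21.0 and 28.4 CPM in Nbeal2-/- cells, against 109, 92.5, 103 and 79.3 CPM in WT cells (log2 fold change -1.94, SE 0.10, adjusted p = 4.66e-09). Mcpt4, the chymase gene of connective tissue mast cells, was at 51.4, 57.0, 52.1 and 59.9 CPM in Nbeal2-/- cells, against 224, 259, 298 and 213 CPM in WT cells (log2 fold change -2.17, SE 0.16, adjusted p = 3.55e-07). Mcpt2, another mucosal protease gene, was at 74.0, 67.2, 63.4 and 73.4 CPM in Nbeal2-/- cells, against 215, 249.6, 269.8 and 173 CPM in WT cells (log2 fold change -1.71, SE 0.10, adjusted p = 3.08e-08). In all 3 the Nbeal2-/- libraries lay close together, far under the WT libraries, and no library crossed over.

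The upstream sequences of Mcpt1 and Mcpt4 are shown because both genes fell together. They are the 250 bases before the RefSeq start (GRCm38.p6), chr14:56017714-56017963 on the plus strand for Mcpt1 and chr14:56062311-56062560 on the minus strand for Mcpt4. Capitals mark TGATAA, a form of the GATA motif.
Mcpt1: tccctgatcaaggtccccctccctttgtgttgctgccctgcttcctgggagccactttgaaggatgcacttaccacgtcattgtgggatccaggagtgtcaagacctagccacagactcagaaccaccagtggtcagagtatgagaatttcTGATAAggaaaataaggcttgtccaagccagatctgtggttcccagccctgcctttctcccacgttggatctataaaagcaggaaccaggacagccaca
Mcpt4: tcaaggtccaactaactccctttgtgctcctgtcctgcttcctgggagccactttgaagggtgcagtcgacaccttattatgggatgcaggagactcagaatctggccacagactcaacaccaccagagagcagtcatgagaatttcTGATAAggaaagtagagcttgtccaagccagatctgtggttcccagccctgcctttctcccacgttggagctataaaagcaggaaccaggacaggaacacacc

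Aligned globally, both sequences shared 213 of 240 aligned bases, with 20 bases in gaps. Motifs were searched on both strands. They were the GATA motif AGATAA, the E-box motif CACGTG, the AP-1 motif TGANTCA, the cyclic AMP response element TGACGTCA and a 10-base NF-kB motif with 1 free position, and none of these 5 was found in either window. TGATAA, added after the sequences had been seen, occurred once in each. Over 32851 promoter windows of the same length in the table, 7.94% held the added GATA form, 9.99% the first GATA form, 6.02% the E-box, 6.75% the AP-1 motif, 1.55% the cyclic AMP response element and 0.356% the NF-kB motif. The upstream windows of Ccl6 and Ccl9, searched the same way, held no match in Ccl6 and 1 match to TGANTCA in Ccl9. A match is a description of letters and not of binding.

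Tryptase and granzyme genes were among the others that fell. Tpsab1, the gene of a secreted tryptase, was at 108, 114, 117 and 117 CPM in Nbeal2-/- cells, against 279, 280.4, 235 and 259 CPM in WT cells (log2 fold change -1.21, SE 0.10, adjusted p = 8.50e-07). Tpsb2, the main granule tryptase gene of mouse mast cells, averaged 11083 ± 1423 CPM in Nbeal2-/- cells and 18628 ± 937 CPM in WT cells (log2 fold change -0.75, SE 0.13, adjusted p = 0.0013). Gzmb, the granzyme B gene, averaged 2078 ± 103 CPM in Nbeal2-/- cells and 2997 ± 193 CPM in WT cells (log2 fold change -0.53, SE 0.06). The order of these log2 fold changes was not tested as such. Mcpt8, a serine protease gene known from mouse basophils, averaged 51.9 ± 7.19 CPM in Nbeal2-/- cells and 97.8 ± 8.28 CPM in WT cells. Ndst2, whose product sulfates the heparin that holds granule proteases, was 1.30-fold lower, at 639.5 ± 21.9 CPM in Nbeal2-/- cells and 829.6 ± 24.2 CPM in WT cells. Gzmd, at under 1 CPM, was also lower.

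Other granule transcripts of high counts were not called. Cma1, the chymase gene, averaged 12600.0 ± 288 CPM in Nbeal2-/- cells and 14125 ± 736 CPM in WT cells (adjusted p = 0.16). Cpa3 had a log2 fold change of -0.01, and Srgn, which encodes the proteoglycan core serglycin, averaged 4451 ± 83.7 CPM in Nbeal2-/- cells and 4223 ± 161 CPM in WT cells (adjusted p = 0.56). Tpsg1, a transmembrane tryptase gene, averaged 1262 ± 29.6 CPM in Nbeal2-/- cells and 1084 ± 80.4 CPM in WT cells (adjusted p = 0.12). The mast cell proteases and tryptases are families of related genes, and how well the counting split reads between members was not tested. In bulk samples, fewer cells of a type and less RNA per cell cannot be told apart.

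**Figure D3:**
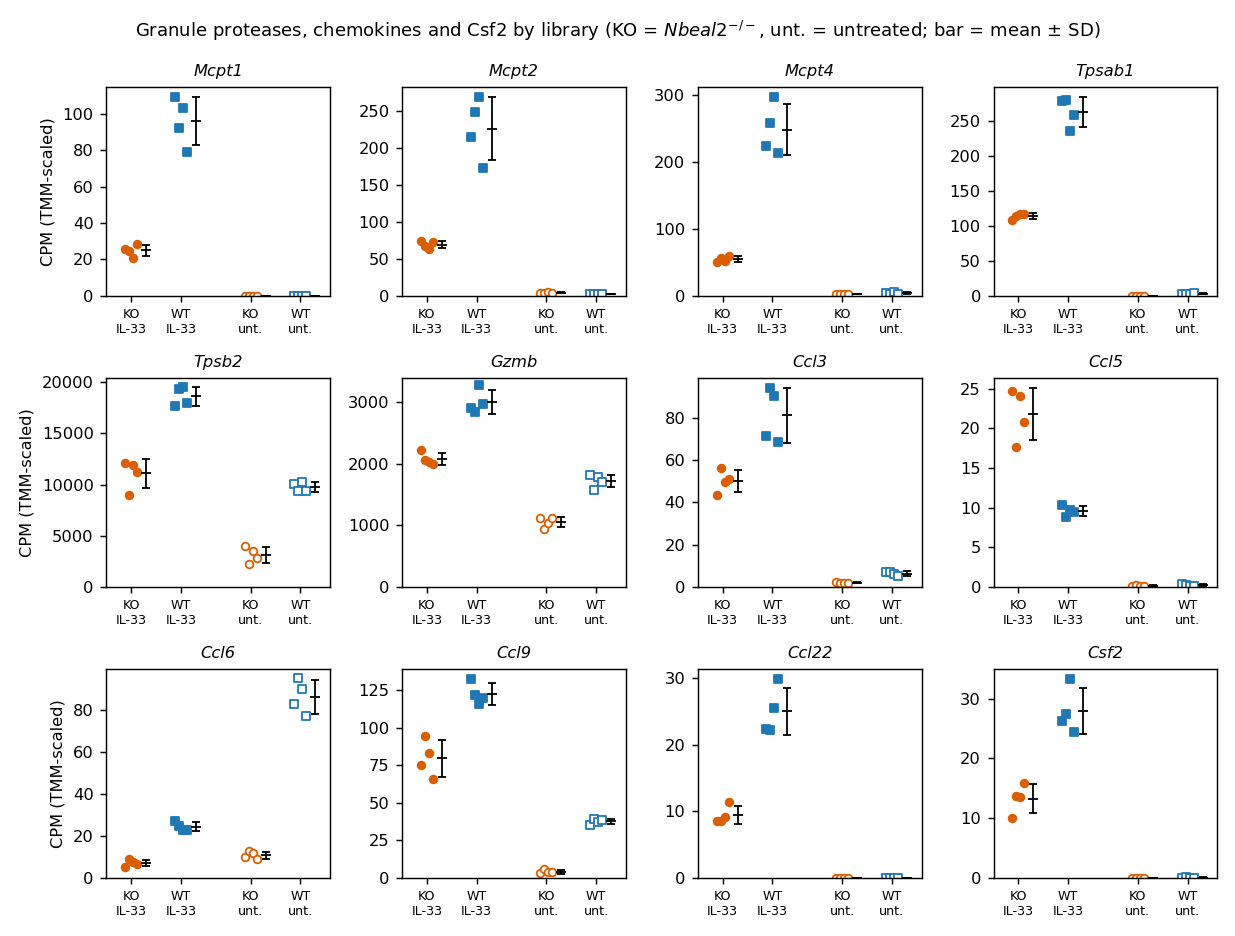
CPM after TMM scaling of 12 genes in each library: Nbeal2-/- (KO, orange circles) beside WT (blue squares) with IL-33 (filled) and untreated (unt., open); black bars are mean ± SD of 4 libraries, and each panel has its own axis from 0. With IL-33, Nbeal2-/- libraries were lower in 11 panels and higher for Ccl5. Mcpt1, Mcpt2, Mcpt4, Tpsab1, Ccl22 and Csf2 were near the bottom of their axes in both untreated genotypes.

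For some of these proteases, but not all, the genotype difference itself differed between conditions. Without IL-33 Mcpt4 was at 2.92 ± 0.54 CPM in Nbeal2-/- cells and 3.95 ± 1.48 CPM in WT cells, a log2 fold change of -0.43 that was not called, and the difference of -1.74 (SE 0.27) passed (adjusted p = 0.0024). Untreated Mcpt2 was higher in Nbeal2-/- cells, at 4.29 ± 0.44 CPM against 2.95 ± 0.07 CPM in WT cells, so its log2 fold change went in opposite directions (difference -2.24, SE 0.17, adjusted p = 5.5e-06). Mcpt8 shifted likewise by -1.36 (adjusted p = 0.015). Tpsab1 did the reverse: its untreated log2 fold change was -3.44, at 0.274 ± 0.08 CPM in Nbeal2-/- cells and 2.95 ± 0.86 CPM in WT cells, and the genotype difference with IL-33 was smaller by 2.23 (SE 0.27, adjusted p = 3.5e-04). For Mcpt1 the difference did not pass (-0.54, SE 0.95, adjusted p = 0.80), with levels near 0 in both untreated genotypes, at 0.031 ± 0.022 CPM in Nbeal2-/- cells and 0.087 ± 0.037 CPM in WT cells, and for Gzmb it did not pass either (0.18, SE 0.09, adjusted p = 0.30). Over the list, 8 of 22 genes had a called difference, against 4.56% of all genes.

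Of 22 mast cell identity genes, 0 were higher and 6 lower (27.3% called, against 11.2% of all genes), with a median log2 fold change of -0.10. The lower genes numbered 10 in a fit of only the 8 libraries with IL-33, where 1 was higher, 11 when that fit also had the replicate block, and 5 to 9 under the other alternatives run. Kit, the stem cell factor receptor gene on which mast cells depend, averaged 1143 ± 66.7 CPM in Nbeal2-/- cells and 1626 ± 105 CPM in WT cells (log2 fold change -0.51, SE 0.08, adjusted p = 7.66e-04). The IL-33 receptor gene Il1rl1 averaged 3844 ± 186 CPM in Nbeal2-/- cells and 4413 ± 126 CPM in WT cells (log2 fold change -0.20, adjusted p = 0.041). Hpgds, the hematopoietic prostaglandin D synthase gene, was 1.40-fold lower and Rab27b, a GTPase gene of granule exocytosis, 1.23-fold lower. Besides Mrgprb2, the related receptor gene Mrgprb1 was lower, at 0.077 ± 0.04 CPM in Nbeal2-/- cells against 0.476 ± 0.135 CPM in WT cells. Fcer1a, Ms4a2 and the transcription factor gene Gata2 had log2 fold changes of 0.06, -0.02 and 0.01 and were not called.

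All called chemokine genes but 1 were lower in Nbeal2-/- cells. Of 13 tested, 1 was higher and 7 lower (61.5% called, against 11.2% of all genes), with a median log2 fold change of -0.62. Ccl4 was at 7.22, 8.27, 7.63 and 7.81 CPM in Nbeal2-/- cells, against 14, 14.1, 14.6 and 14.9 CPM in WT cells (log2 fold change -0.90, SE 0.06, adjusted p = 5.36e-08). Ccl6 was at 5.28, 8.75, 7.37 and 6.46 CPM in Nbeal2-/- cells, against 27.1, 24.6, 22.9 and 22.9 CPM in WT cells (log2 fold change -1.82, SE 0.13, adjusted p = 2.17e-07). Ccl22, a CCR4 ligand gene, was at 8.57, 8.52, 9.11 and 11.4 CPM in Nbeal2-/- cells, against 22.4, 22.3, 25.5 and 29.9 CPM in WT cells (log2 fold change -1.41, SE 0.12, adjusted p = 4.12e-06). No library of one genotype reached the range of the other in these 3. Ccl24, an eotaxin gene, averaged 0.496 ± 0.177 CPM in Nbeal2-/- cells and 2.99 ± 0.47 CPM in WT cells. The monocyte chemoattractant gene Ccl2 averaged 79.9 ± 5.66 CPM in Nbeal2-/- cells and 146 ± 8.07 CPM in WT cells. Ccl3 averaged 50.1 ± 5.31 CPM in Nbeal2-/- cells and 81.2 ± 13.1 CPM in WT cells, and Ccl9 averaged 79.7 ± 12.3 CPM in Nbeal2-/- cells and 123 ± 7.2 CPM in WT cells.

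Ccl5, the RANTES gene, was that exception. It stood at 24.7, 17.6, 24.1 and 20.8 CPM in Nbeal2-/- cells, against 10.4, 8.79, 9.74 and 9.42 CPM in WT cells (log2 fold change 1.19, SE 0.13, adjusted p = 1.09e-05). Every Nbeal2-/- library exceeded every WT library. Ccl1, Ccl7 and Ccl17 were not called. For Ccl9 the genotype difference without IL-33 was much larger, at 4.09 ± 1.36 CPM in Nbeal2-/- cells and 37.6 ± 1.74 CPM in WT cells, and the test of the difference gave 2.57 (SE 0.21, adjusted p = 9.2e-06). Ccl24 went the other way, with a difference of -2.65 (SE 0.42, adjusted p = 0.0024) from levels of 0.235 ± 0.07 CPM in untreated Nbeal2-/- cells and 0.228 ± 0.081 CPM in untreated WT cells. In all, 8 of 13 chemokine genes had a called difference, against 4.56% of all genes. Among 8 chemokine receptor genes (25% called, against 11.2% of all genes) Ccr3 was lower and Ccrl2, an atypical receptor that presents chemerin, higher (1.5-fold, log2 0.58, adjusted p = 0.015).

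Cytokine genes showed no common direction: of 18 tested, 2 were higher and 1 lower (16.7% called, against 11.2% of all genes). Csf2, the GM-CSF gene, was at 9.98, 13.6, 13.5 and 15.8 CPM in Nbeal2-/- cells, against 26.3, 27.4, 33.3 and 24.4 CPM in WT cells (log2 fold change -1.07, SE 0.13, adjusted p = 5.26e-05). Il6 was at 353, 393, 347 and 340.0 CPM in Nbeal2-/- cells, against 263, 297, 286 and 214 CPM in WT cells (log2 fold change 0.44, SE 0.10, adjusted p = 0.0076). Lif, the leukemia inhibitory factor gene, averaged 175 ± 13.7 CPM in Nbeal2-/- cells and 125 ± 20.7 CPM in WT cells (log2 fold change 0.49, SE 0.10, adjusted p = 0.0044). So 2 genes of IL-6 family cytokines were higher and GM-CSF transcript was lower, each with no overlap. The type 2 cytokine gene Il13 averaged 99.2 ± 17.8 CPM in Nbeal2-/- cells and 109 ± 27.2 CPM in WT cells (adjusted p = 0.68). Il1b at 2134 ± 119 CPM in Nbeal2-/- cells against 1702 ± 223 CPM in WT cells (adjusted p = 0.18), and Tnf at 83.0 ± 4.67 CPM in Nbeal2-/- cells against 91.8 ± 5.56 CPM in WT cells (adjusted p = 0.17), were not called either.

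**Figure D4:**
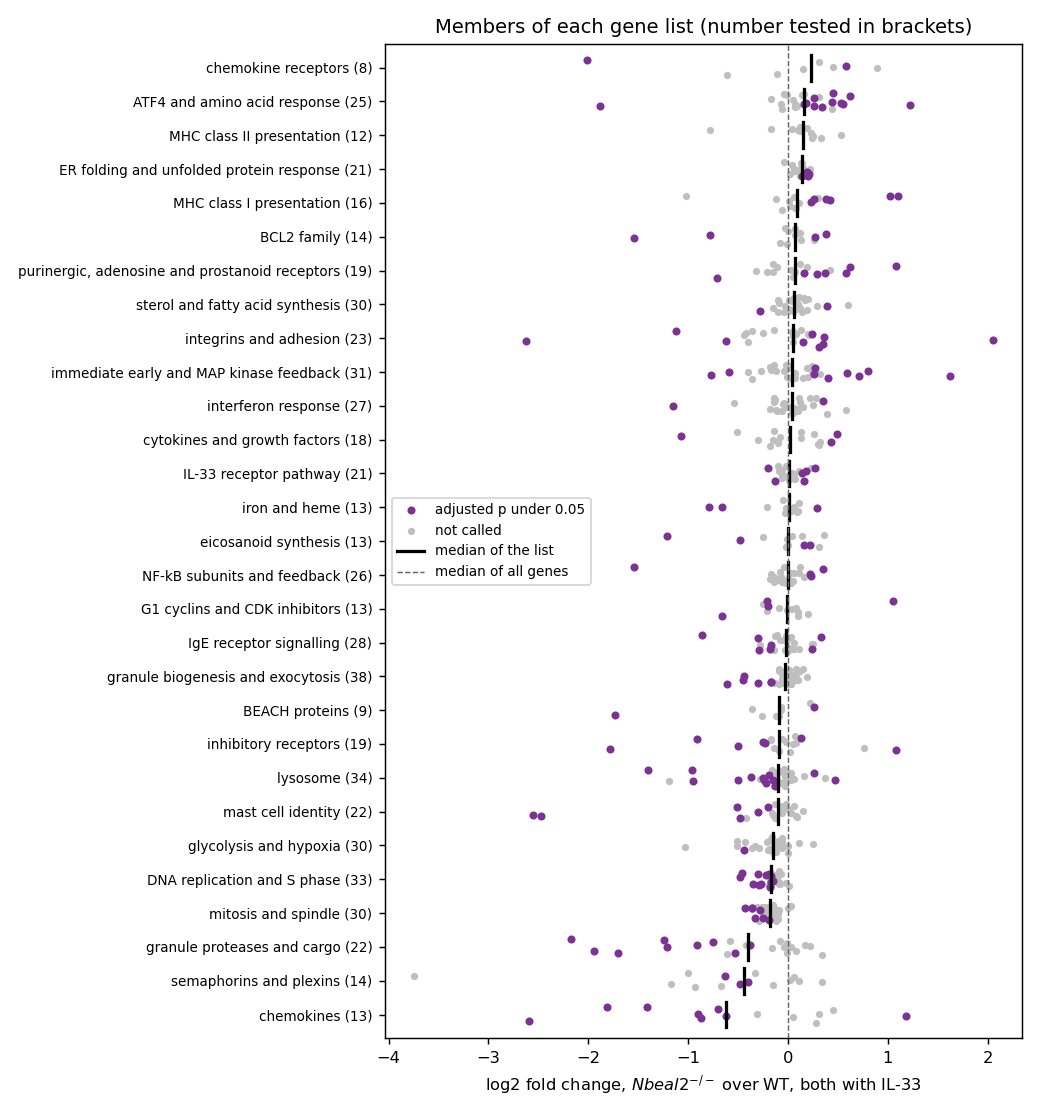
Log2 fold change, Nbeal2-/- over WT with IL-33, of every tested member of 29 gene lists, ordered by the median of the list (black bar); purple points passed an adjusted p of 0.05 and grey points did not, and the dashed line is the median of all genes. Chemokines have the lowest median at -0.62 and ATF4 targets, with 11 of 25 members higher, one of the highest at 0.16.

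Genes of the pathway that carries the IL-33 signal had small fold changes. Of 21 IL-33 receptor pathway genes, 4 were higher and 2 lower (28.6% called, against 11.2% of all genes), all within 1.21-fold, with a median log2 fold change of 0.01. Leaving out 1 library with IL-33 at a time left 1 to 3 higher genes, with 1 without Nbeal2-/- library 3 or WT library 2 or 4 and 2 without Nbeal2-/- library 1 or WT library 1 or 3. Mapkapk2, a kinase gene downstream of p38, averaged 161 ± 3.07 CPM in Nbeal2-/- cells and 142 ± 2.05 CPM in WT cells. Irak3, which encodes an inhibitor of the pathway, was 1.21-fold higher and Tollip 1.09-fold lower. Myd88 (log2 fold change 0.06), Il1rap (-0.06) and Irak2 (0.01) were not called. Of 26 NF-kB subunits and feedback genes, 3 were higher and 1 lower (15.4% called, against 11.2% of all genes). Zc3h12a, the gene of the RNase that degrades cytokine mRNAs, averaged 164 ± 6.61 CPM in Nbeal2-/- cells and 140 ± 5.77 CPM in WT cells (log2 fold change 0.22, SE 0.04, adjusted p = 0.0035). Nfkb1 and Nfkbia had log2 fold changes of 0.06 and 0.05 and were not called. The member that was lower, Bcl2a1d, averaged 0.291 ± 0.099 CPM in Nbeal2-/- cells and 0.845 ± 0.255 CPM in WT cells and belongs to a family of near-identical genes.

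Immediate early and MAP kinase feedback genes changed in 9 of 31 cases, 7 higher and 2 lower (29% called, against 11.2% of all genes). That number of higher genes was 1 without Nbeal2-/- library 1, 2 without Nbeal2-/- library 3 or WT library 3 or 4, 3 without Nbeal2-/- library 2 or WT library 1 or 2, and 5 without Nbeal2-/- library 4. Myc was at 204, 186, 198 and 195 CPM in Nbeal2-/- cells, against 160.0, 160.1, 166 and 162 CPM in WT cells (log2 fold change 0.27, SE 0.05, adjusted p = 0.0021). The 2 lower genes both encode MAP kinase phosphatases: Dusp1 averaged 15.3 ± 2.03 CPM in Nbeal2-/- cells and 26.2 ± 4.81 CPM in WT cells, and Dusp10 3.28 ± 0.27 CPM in Nbeal2-/- cells and 4.94 ± 0.94 CPM in WT cells. Dusp2 and Dusp6, phosphatases of ERK, were higher, with log2 fold changes of 0.59 and 0.27. The phosphatase gene Dusp8, on no list but among the largest differences between conditions, was 1.94-fold lower with IL-33. It had 1 count over the untreated Nbeal2-/- libraries and 52 over the untreated WT libraries.

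Of 9 tested BEACH genes (22.2% called, against 11.2% of all genes), with a median log2 fold change of -0.09, Nsmaf, a gene of TNF receptor signalling, was the one higher member, at 16.0 ± 0.89 CPM in Nbeal2-/- cells and 13.4 ± 0.94 CPM in WT cells, and Nbeal2 the one lower member. Nsmaf lost its call without Nbeal2-/- library 3 or 4 or WT library 1, 2 or 3 (adjusted p up to 0.088). The libraries did not overlap for 5 of the 9 (22.9% of all genes), and the lower members numbered 2 with DESeq2, without Nbeal2-/- library 2 or without the 4 libraries numbered 1, 3 with the replicate block and 4 in fits of only the 8 libraries with IL-33. Lyst, whose loss gives giant granules in Chediak-Higashi syndrome, averaged 48.1 ± 1.79 CPM in Nbeal2-/- cells and 61.9 ± 2.57 CPM in WT cells without passing (adjusted p = 0.067). The closest relative Nbeal1 had a log2 fold change of -0.09. Of 38 genes of granule biogenesis and exocytosis, 0 were higher and 6 lower (15.8% called), a share near the 11.2% of all genes, and 3 were lower without Nbeal2-/- library 1 or 4 or WT library 2. Rab32, a GTPase gene of lysosome-related organelles, averaged 17.1 ± 0.58 CPM in Nbeal2-/- cells and 23.3 ± 0.53 CPM in WT cells (log2 fold change -0.45, SE 0.05, adjusted p = 1.06e-05). Sytl1 and Rab27b, a Rab27 effector and its GTPase, were 1.53-fold and 1.23-fold lower, and the SNARE genes Vamp3 and Snap29 were lower as well. Vps33b, needed like Nbeal2 for platelet alpha granules, had a log2 fold change of 0.08 and was not called.

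Most of the called lysosomal genes were lower. Of 34, 11 were lower and 2 higher (38.2% called, against 11.2% of all genes), with a median log2 fold change of -0.10. Psap, the precursor gene of the saposins that assist lipid hydrolysis, was at 212, 217, 223 and 218 CPM in Nbeal2-/- cells, against 284, 279, 271 and 286 CPM in WT cells (log2 fold change -0.37, SE 0.04, adjusted p = 1.94e-05). Scarb2, a lysosomal membrane protein gene, averaged 4.29 ± 0.71 CPM in Nbeal2-/- cells and 8.31 ± 0.53 CPM in WT cells. Lamp1 and Lamp2, Ctsb, Tpp1, Hexa, Naglu, Cd68 and, at under 1 CPM, the regulator Tfeb were lower too, besides Glb1. Against that direction, Ctsc, the cathepsin that activates granule proteases, averaged 264 ± 20.5 CPM in Nbeal2-/- cells and 191 ± 6.59 CPM in WT cells (log2 fold change 0.47, SE 0.06, adjusted p = 3.99e-05), and Ctsz was 1.20-fold higher.

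The replication and mitosis genes called with IL-33 were all lower in Nbeal2-/- cells, whereas those called without it were all higher. Of 33 DNA replication and S phase genes, 0 were higher and 12 lower (36.4% called, against 11.2% of all genes), and of 30 mitosis and spindle genes, 0 were higher and 7 lower (23.3%). The median log2 fold changes were -0.17 and -0.18. Tk1, the S phase thymidine kinase gene, was at 20.1, 19.5, 22.1 and 22.2 CPM in Nbeal2-/- cells, against 30.9, 27.7, 25.5 and 32.7 CPM in WT cells (log2 fold change -0.48, SE 0.10, adjusted p = 0.0039). Prc1, a gene of the central spindle, was at 45.8, 49.9, 46.4 and 48.3 CPM in Nbeal2-/- cells, against 66.1, 65.1, 56.4 and 68.1 CPM in WT cells (log2 fold change -0.43, SE 0.08, adjusted p = 0.0021). In both genes the lowest WT library was number 3, which still lay above every Nbeal2-/- library. E2f1 and E2f2, transcription factor genes of S phase entry, were 1.21-fold and 1.38-fold lower. The proliferation marker Mki67 averaged 211 ± 5.33 CPM in Nbeal2-/- cells and 262 ± 29.9 CPM in WT cells without passing (adjusted p = 0.06).

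Untreated, 29 of the 33 replication genes and 25 of the 30 mitosis genes were higher in Nbeal2-/- cells and 0 were lower, with median log2 fold changes of 0.26 and 0.40. Over all 15470 genes, 2840 were called higher and 2709 lower in the untreated comparison (35.9% called). The genotype difference with IL-33 was tested against that without it for each gene, and 26 of 33 and 25 of 30 passed, against 4.56% of all genes. For Tk1 the difference was -0.77 (SE 0.14, adjusted p = 0.0041), from 55.2 ± 4.04 CPM in untreated Nbeal2-/- cells and 45.3 ± 6.84 CPM in untreated WT cells. The number of mitosis genes called lower with IL-33 was 3 without the 4 libraries numbered 1 and 14 in a fit of only the 8 libraries with IL-33, and for replication genes it was 15 and 24. Leaving out WT library 4 gave 3 mitosis and 7 replication genes, WT library 1 gave 4 and 7, Nbeal2-/- library 3 gave 4 and 8, Nbeal2-/- library 1 gave 5 and 7, and WT library 3 gave 11 and 10. Over all alternatives run, the difference between conditions was called for 18 to 29 of the mitosis genes and 25 to 33 of the replication genes, each time in the same direction. The CDK inhibitor genes did not share 1 direction: Cdkn2c was 1.58-fold lower, Cdkn1a 1.15-fold lower and Cdkn2b 2.07-fold higher.

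**Figure D5:**
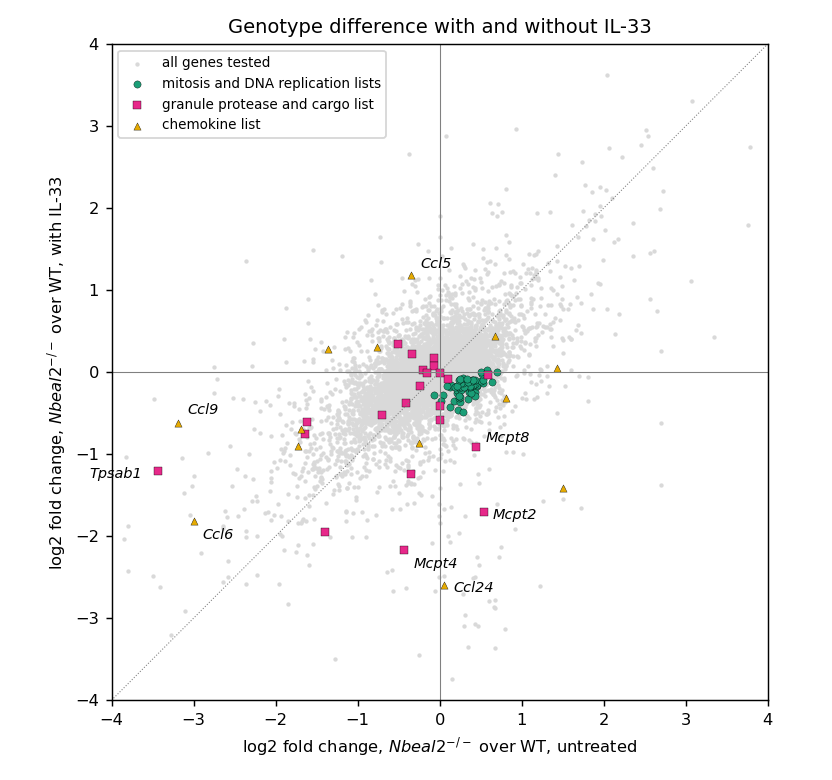
Log2 fold change, Nbeal2-/- over WT, with IL-33 (vertical axis) against untreated (horizontal axis) for all genes tested; circles are mitosis and DNA replication genes, squares granule protease and cargo genes and triangles chemokine genes, and the dotted line marks equal values. Cell cycle genes lie mostly right of 0 and below 0, with list medians of 0.40 and 0.26 untreated and -0.18 and -0.17 with IL-33; 6 genes lie outside the axes.

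Of the 1730 genes called with IL-33, 1224 were also called without it, which is 70.8% of them and 22.1% of the 5549 genes called without IL-33 (35.9% of all tested). Those 1224 comprised 537 higher in both, 611 lower in both and 76 called in opposite directions. The 2 comparisons share no library, but libraries of the same genotype and number deviated together (correlations 0.171 to 0.369 in 8 pairs), so they are not independent and these counts are a description. A further 506 genes were called with IL-33 alone, but the difference between conditions passed for 106 of these. Over all genes the difference passed for 706, or 4.56%. Sema6d, a transmembrane semaphorin gene, shows a gene lower in both conditions by unlike amounts: it averaged 131 ± 6.12 CPM in Nbeal2-/- cells and 182 ± 9.62 CPM in WT cells with IL-33 (log2 fold change -0.48, SE 0.06), and 0.195 ± 0.057 CPM in untreated Nbeal2-/- cells and 0.895 ± 0.148 CPM in untreated WT cells (log2 fold change -2.19). Rab11fip5, a gene of recycling endosomes, had a difference of 1.76 (SE 0.22, adjusted p = 5.2e-04). Its log2 fold change was -2.11 untreated and -0.35 with IL-33 (SE 0.10, adjusted p = 0.032). With IL-33 its libraries overlapped between genotypes, and its call there was lost under 10 of 20 alternatives. Egr2, an early growth response gene, and the histone gene H2ac13 were higher without IL-33 and not called with it.

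Genes of the amino acid response were among those that rose. Of 25 ATF4 and amino acid response genes, 11 were higher and 1 lower (48% called, against 11.2% of all genes), with a median log2 fold change of 0.16. Asns, the asparagine synthetase gene, was at 54.7, 48.3, 48.7 and 51.0 CPM in Nbeal2-/- cells, against 35, 31.8, 36.3 and 37.1 CPM in WT cells (log2 fold change 0.53, SE 0.07, adjusted p = 1.32e-04). Psat1, an enzyme gene of serine synthesis, was at 87.8, 86.1, 86.6 and 83.4 CPM in Nbeal2-/- cells, against 58.7, 57.5, 67.5 and 67.8 CPM in WT cells (log2 fold change 0.45, SE 0.06, adjusted p = 1.17e-04). The genotypes did not overlap in either gene. Nupr1, a stress-induced chromatin protein gene, was 2.33-fold higher at 3.31 ± 0.34 CPM in Nbeal2-/- cells and 1.43 ± 0.21 CPM in WT cells. Slc7a5, Shmt2, Pycr1, Atf5, Mthfd2, Aldh18a1, Sars and Wars were the other 8 higher members. Vldlr, a lipoprotein receptor gene, was lower, with WT libraries spread from 1.25 to 5.86 CPM. Atf4 itself had a log2 fold change of 0.16 (adjusted p = 0.15) and Ddit3 one of -0.06.

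In the endoplasmic reticulum list, 5 of 21 genes were higher and 0 lower (23.8% called, against 11.2% of all genes), with log2 fold changes from 0.14 to 0.21. Edem1, whose product sorts misfolded glycoproteins for degradation, averaged 438 ± 23 CPM in Nbeal2-/- cells and 383 ± 7.96 CPM in WT cells (log2 fold change 0.19, SE 0.04, adjusted p = 0.005). Pdia4, Pdia6, Dnajc3 and Atf6b were the others, while the chaperone gene Hspa5 did not pass (log2 fold change 0.14, adjusted p = 0.085). In a fit of only the 8 libraries with IL-33 the number of higher genes was 14, without WT library 1 it was 1, without Nbeal2-/- library 1 or WT library 4 it was 2, and without Nbeal2-/- library 3 it was 3. Of 30 glycolysis and hypoxia genes, 1 was lower with IL-33, the phosphofructokinase gene Pfkp (1.36-fold; 3.33% called, against 11.2% of all genes). Without IL-33, 21 were lower, in a comparison that called 35.9% of all genes. The test of the difference passed for 1 of the 30, against 4.56% of all genes. Of 30 sterol and fatty acid synthesis genes, 1 was higher, the fatty acid elongase gene Elovl6, and 1 lower (6.67% called, against 11.2% of all genes).

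Several class I antigen presentation genes were higher. Of 16, 6 were higher and 0 lower (37.5% called, against 11.2% of all genes). H2-K1, a classical class I heavy chain gene, was at 1079, 1035, 1059 and 1123 CPM in Nbeal2-/- cells, against 826, 837, 833 and 810.4 CPM in WT cells (log2 fold change 0.38, SE 0.05, adjusted p = 9.09e-05). H2-D1 was 1.17-fold and the peptide-trimming gene Erap1 1.20-fold higher. The nonclassical genes H2-Q6 and H2-Q7 were 2.14-fold and 2.03-fold higher and H2-Q4 1.34-fold; their sequences are near-identical, so reads cannot be assigned among them with certainty. The light chain gene B2m had a log2 fold change of 0.02 and was not called. Of 12 class II presentation genes, 0 passed with edgeR, DESeq2 or limma, 1 had an unadjusted p under 0.05, and 1 was called higher without WT library 3. H2-DMb1 had the smallest p of that list in edgeR, with a log2 fold change of 0.26 (adjusted p = 0.099, p before adjustment 0.016). Of 27 interferon response genes, Usp18, which encodes a brake on interferon signalling, was higher and Gbp4 lower (7.41% called, against 11.2% of all genes).

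Signalling downstream of the IgE receptor changed in 7 of 28 genes, 2 higher and 5 lower (25% called, against 11.2% of all genes). Leaving out any 1 library with IL-33 left 2 or 3 lower beside 2 higher. In those fits the calls over all genes were fewer as well, at 1174 to 1728 against 1730. Pik3cd, the leukocyte PI3-kinase gene, was at 997, 906, 937 and 946 CPM in Nbeal2-/- cells, against 768, 758, 743 and 739.9 CPM in WT cells (log2 fold change 0.33, SE 0.05, adjusted p = 5.01e-04). Ptpn6, the gene of the inhibitory phosphatase SHP-1, averaged 423 ± 7.06 CPM in Nbeal2-/- cells and 359 ± 11.6 CPM in WT cells. Plcg1, the phospholipase gene that links the receptor to calcium release, averaged 318 ± 18.5 CPM in Nbeal2-/- cells and 389 ± 20.7 CPM in WT cells (log2 fold change -0.29, adjusted p = 0.0014). Of 19 inhibitory receptor genes, 2 were higher and 5 lower (36.8% called), and without WT library 1 the lower genes numbered 3. Fcgr3, the low-affinity IgG receptor gene, which was kept on this list although it activates, was at 42.4, 36.6, 40.0 and 38.8 CPM in Nbeal2-/- cells, against 17.0, 19.0, 17.2 and 21.5 CPM in WT cells (log2 fold change 1.08, SE 0.09, adjusted p = 3.55e-07).

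Among 13 genes of eicosanoid synthesis, 2 were higher and 2 lower (30.8% called, against 11.2% of all genes). Ptgs2, the inducible cyclooxygenase gene, was at 4.26, 4.24, 3.88 and 5.62 CPM in Nbeal2-/- cells, against 9.18, 10.5, 8.33 and 13.6 CPM in WT cells (log2 fold change -1.21, SE 0.16, adjusted p = 1.21e-04). Hpgds was the other lower gene. Tbxas1, the thromboxane synthase gene, averaged 334 ± 10.9 CPM in Nbeal2-/- cells and 287 ± 6.68 CPM in WT cells, and Lta4h, of leukotriene B4 synthesis, was 1.12-fold higher. Alox5, which starts leukotriene synthesis, had a log2 fold change of 0.04 and was not called.

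Receptors for nucleotides, adenosine, prostanoids and other lipid mediators, and histamine changed in 7 of 19 genes, 6 higher and 1 lower (36.8% called, against 11.2% of all genes), with 3 higher without Nbeal2-/- library 1 or WT library 2 or 4. P2ry10, a lysophosphatidylserine receptor gene, averaged 7.09 ± 0.52 CPM in Nbeal2-/- cells and 3.34 ± 0.34 CPM in WT cells (log2 fold change 1.08, SE 0.11, adjusted p = 6.01e-06). Adora2b, an adenosine receptor gene, was at 51.7, 48.1, 50.9 and 51.5 CPM in Nbeal2-/- cells, against 31.0, 36.9, 36.0 and 31.2 CPM in WT cells (log2 fold change 0.58, SE 0.11, adjusted p = 0.0027). P2ry14, the UDP-glucose receptor gene, was 1.30-fold higher. The histamine receptors divided, with Hrh2 1.22-fold higher and Hrh4 1.64-fold lower. Integrin and adhesion genes changed in 9 of 23 cases, 6 higher and 3 lower (39.1% called), with 3 higher without Nbeal2-/- library 1 or WT library 2 or 3. Itga4, the alpha4 integrin gene, averaged 29.3 ± 3.20 CPM in Nbeal2-/- cells and 63.8 ± 7.46 CPM in WT cells (log2 fold change -1.12, SE 0.18, adjusted p = 9.11e-04), and Itgb2 fell 1.54-fold. The tetraspanin gene Cd82 was 1.29-fold higher, opposite to Cd81. Itgae had the largest rise of the list (4.17-fold), but Nbeal2-/- library 1 at 10.5 CPM stood far above the other 3, at 2.63 to 3.23 CPM.

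In 3 smaller lists 3 or 4 genes each were called. Of 14 BCL2 family genes (28.6% called, against 11.2% of all genes), Bcl2, a survival gene, was 1.21-fold higher and Bmf, a pro-apoptotic gene, 1.31-fold higher, and Pmaip1 and Bcl2a1d were lower. Of 14 semaphorin and plexin genes, 0 were higher and 3 lower (21.4% called), among them Plxnd1 at 99.4 ± 5.09 CPM in Nbeal2-/- cells and 154 ± 10.7 CPM in WT cells, besides Sema6d and Sema4c. Of 13 iron and heme genes (23.1% called), the ferrireductase gene Steap3 was 1.73-fold lower (log2 fold change -0.79, SE 0.07, adjusted p = 1.90e-06), Slc39a8 1.58-fold lower and the ferritin gene Fth1 1.22-fold higher.

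Markers of other lineages were read beside these results. Of 10 tested monocyte and macrophage markers 2 were higher and 2 lower (40% called, against 11.2% of all genes). The summed level of that list ran from 358 to 507 RPM in Nbeal2-/- libraries and from 153 to 536 RPM in WT libraries. In every library with IL-33, 10 of its 17 listed genes stood under 1 RPM. Adgre1, the F4/80 gene, averaged 20.8 ± 2.50 CPM in Nbeal2-/- cells and 11.7 ± 0.99 CPM in WT cells (log2 fold change 0.83, SE 0.13, adjusted p = 3.18e-04), and Vcan, the versican gene, 15.4 ± 0.83 CPM in Nbeal2-/- cells and 9.97 ± 1.81 CPM in WT cells. Marco and Cd68 were lower, and the defining macrophage gene Csf1r stood at 0.078 ± 0.034 CPM in Nbeal2-/- cells and 0.154 ± 0.11 CPM in WT cells. Of 12 basophil markers 4 were lower (33.3% called, against 11.2% of all genes): Gzmb, Mcpt8, Prss34 and Cebpa, 2 of which are also on the protease list. Leaving out Nbeal2-/- library 1, 2 or 4 or WT library 1, 3 or 4 left 2 lower. The list summed to 20200 to 20700 RPM in Nbeal2-/- libraries and 20600 to 21800 RPM in WT libraries. That sum included Fcer1a, also a mast cell marker, at 5050 to 5220 RPM in Nbeal2-/- libraries and 4820 to 5090 RPM in WT libraries. The part of such cells in the protease result was not tested. Of 6 megakaryocyte and platelet markers Gp5 and Vwf were lower (33.3% called), 10 of the 16 listed stood under 1 RPM in every library, and the integrin gene Itga2b was not called. Of 7 erythroid markers (14.3% called, a share near that of all genes) Car2, the carbonic anhydrase gene, was higher (2.17-fold, adjusted p = 1.91e-05). Of 10 stem and progenitor markers (20% called), 1 was higher and 1, Kit, lower. The higher one was the transcription factor gene Meis1, at 37.8 ± 3.20 CPM in Nbeal2-/- cells and 28.3 ± 3.04 CPM in WT cells.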

How the data were processed

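RNA-seq was read from poly(A)-selected, strand-specific libraries made from Qiazol-extracted RNA, per the labels' protocols. The authors deposited raw counts per gene for 16 libraries; featureCounts 1.6.5, bcl2fastq 2.20.0.422 and build GRCm38 are named in the submitters' processing notes, while aligner, annotation release and strand setting were not stated. They also deposited RPM values, which equal the deposited counts rescaled to a common library total to within 4.91e-11, and RPKM values, in which the authors further divided by a gene length; RPKM entered no test.

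Group means of all 16 libraries (4 groups of 4) were fitted with edgeR 4.0.16 in R 4.3.3 (filterByExpr, TMM, robust quasi-likelihood test, Benjamini-Hochberg over 15470 genes, threshold 0.05), for the genotype with IL-33, without it, and for the difference. The biological coefficient of variation was 9.56%. No pair of libraries within a group looked like 1 library deposited in duplicate (chi-square per degree of freedom at least 5.341). Pairs from different groups were not compared in this way. Fits were tested on simulated data. Of the gene identifiers, 55227 matched GENCODE M21, which supplied positions, and gene symbols were those of the deposited counts. With IL-33, 1 CPM after TMM scaling rests on at least 35 counts. Named genes were Nbeal2; the 10 largest rises and falls among called genes averaging 5 CPM or more in the higher group without overlap, predicted genes left out; up to 3 called members of each list by smallest p; and the 5 largest differences between conditions in each direction. Other list members named in the text were chosen after their values were seen. The members and lists were chosen with earlier results of these data known. Libraries of the same genotype and number with and without IL-33 deviated together (correlations 0.171 to 0.369 for 8 pairs), so they pair for the difference between conditions: with that block 932 genes passed, against 706 without it. Alternatives used DESeq2 1.42.0, limma 3.58.1, other scalings and filters, blocks and left-out libraries. Promoter sequences were from RefSeq (GRCm38.p6), aligned with Biopython 1.88.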

Additional observations from a re-analysis of the deposited data

Results flagged for a closer look

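In 14 of 222 groups of 4 libraries with IL-33 examined for the named genes, 1 library stood far from the other 3 by Dixon's 95% criterion; chance alone flags about 1 group in 20. WT library 1 stood apart for Nbeal2 (183 CPM), Nradd (7.01 CPM) and Entpd1 (2.39 CPM). WT library 4 stood apart for Ccr3 (6.31 CPM), H2ac13 (12.8 CPM), Cd82 (177 CPM), H2-Q7 (28.2 CPM), Slc39a8 (2.68 CPM) and Cd68 (8.22 CPM). WT library 2 stood apart for Kit (1780 CPM) and WT library 3 for Atf6b (123 CPM). Among Nbeal2-/- libraries, number 1 stood apart for Bcl2a1d (0.143 CPM), number 3 for Cdkn2c (16.0 CPM) and number 4 for Kif23 (50.5 CPM).

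For 39 named genes the log2 fold change of Nbeal2-/- over WT with IL-33 differed from that in untreated cells by the edgeR test of the difference. Among chemokine and receptor genes the difference, with IL-33 minus untreated, was 2.57 for Ccl9, 1.18 for Ccl6, 0.826 for Ccl4, 1.12 for Ccrl2 and -2.65 for Ccl24. Among proteases it was 2.23 for Tpsab1, -2.24 for Mcpt2, -1.74 for Mcpt4 and -1.36 for Mcpt8. Among the named cell cycle genes it was -0.767 for Tk1, -0.681 for E2f2, -0.594 for Cdkn2c, -0.556 for Prc1, -0.528 for Bub1, -0.414 for Myc, -0.311 for E2f1 and -0.284 for Cdkn1a. Surface and antigen presentation genes had differences of 0.784 for Cd81, 0.727 for Fcgr3, 0.601 for H2-Q6, 0.596 for H2-Q7, 0.491 for Cd82, 0.404 for P2ry14 and -0.756 for Adgre1. The remaining positive differences were 4.19 for Dusp8, a fitted value against a group with 1 count, 1.76 for Rab11fip5, 1.72 for Sema6d, 1.15 for Nradd, 0.81 for Nxpe4, 0.575 for Vwf, 0.571 for Sytl1, 0.37 for Shisa5, 0.282 for Birc3 and 0.249 for Tbxas1. The remaining negative ones were -0.338 for Ptpn6, -0.709 for Slc39a8, -0.832 for Vcan, -1.18 for H2ac13 and -1.19 for Egr2.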

How the results depend on the processing

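The genotype comparison with IL-33 called 1730 genes, and 1401 to 2136 under other scalings, filters and tests, but 3099 in a fit of only the 8 libraries with IL-33 and 3304 when that fit also had the replicate block; the cause was not tested. Leaving out 1 library gave 1174 (without Nbeal2-/- library 3) to 1728 genes. The difference between conditions called 706 genes, against 1207 with DESeq2, 1267 without the 4 libraries numbered 1 (chosen after seeing the data), and 443 (without WT library 4 with IL-33) to 1170 (without WT library 1 untreated) leaving out 1 library. Without IL-33 the 5549 calls became 4262 to 6329. Between genotypes, libraries of the same number, 1 to 4, had correlations of 0.238, -0.0393, 0.0395 and 0.0177 with IL-33. Untreated, these were 0.506, 0.163, -0.0346 and 0.0668. The libraries numbered 1 thus deviated together most, and numbers 3 and 4 hardly at all. The replicate block gave 2032 genes with IL-33, 857 for the difference and 5938 untreated. Of 104 named genes that were called, 88 stayed called under each of the 20 alternatives in which they were tested. Not all were tested in each: requiring a mean of 5 CPM kept 94 of the 111 named genes. The other 16 lost the call under 1 to 10 of them, most often Rab11fip5 (10), Prss34 (9), Vwf (9) and Elovl6 (7). None of 2202 values of named genes turned its direction while called. No scaling moved the median of all genes by more than 0.05 (log2).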
